A study of Mus musculus with 18 samples.

Results

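Bile acids are detergent sterols that hepatocytes make from cholesterol, conjugate with an amino acid, pump into the bile canaliculus and take up again from portal blood. The classic route begins with Cyp7a1 and the acidic route with Cyp27a1, and the intestine and liver return most of the pool to the hepatocyte in the enterohepatic cycle. The expression of 10 genes that carry out or restrain these steps is described here in mouse liver with a homozygous deletion of Xist repeat B. They are the synthesis and conjugation enzymes Cyp7a1, Cyp8b1, Cyp27a1 and Baat, the canalicular exporters Abcb11, Abcb4 and Abcc2, the basolateral importers Slc10a1 and Slco1b2, and Nr0b2, a nuclear receptor that represses Cyp7a1. They were found by gene name, and all 10 were present among the 51826 genes of the liver table.

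The study asked what the loss of repeat B, the segment of the X-inactivating RNA Xist that recruits Polycomb complexes, does to mice and to their X-linked genes. Repeat B was removed with CRISPR/Cas9 in ICR mice, and the liver RNA-seq held 3 libraries labelled RepB-/-, the study's name for homozygous females, and 3 labelled WT, without the deletion, with no treatment named for either group. A further 6 libraries came from cells labelled primary MEF (mouse embryonic fibroblasts, with tail given as the tissue), 3 per genotype. The titles mark the groups by the letters B and W alone, which were taken to stand for RepB-/- and WT. The labels give neither age nor sex of the liver donors, the deletion is carried in every cell of the animal, and the labels do not say whether the replicates were separate animals, so p-values measure the spread between these samples. The 6 brain libraries were not analysed here.

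Each liver library held between 37682201 and 51542709 counts and each MEF library between 11540344 and 20587556. Liver libraries stood apart in ways that the genotype labels do not give, and these bear on every value below. The library labelled RepB-/- replicate 2 held 4 counts of Xist and 4342 counts over Uty, Kdm5d, Eif2s3y and Ddx3y, all Y-linked, whereas the other 5 held between 14494 and 26345 counts of Xist and at most 1 Y-linked count. Xist is X-linked and these counts have the pattern of a male, so they go against a homozygous female label, and every RepB-/- value below includes this library unless it is said to be left out. Counts over the whole Xist gene do not show whether repeat B is present, so they do not check the deletion in the other libraries. Both libraries numbered replicate 1 held a summed 6008 and 4790 CPM (RepB-/- first) of 9 fetal hepatoblast genes led by H19, against 8.81 to 29.5 CPM in replicates 2 and 3 (CPM gives a gene's counts scaled to 1 fixed library total, here after TMM normalization, which corrects for a few genes taking many of the reads). The labelled tissue was present throughout, since 11 genes of secreted hepatocyte proteins, among them albumin, summed to between 171884 and 244147 CPM in every library.

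The genes lie on 8 chromosomes in GRCm38, the build of the liver table. Cyp7a1 is at chr4:6265612-6275633 on the minus strand, Baat at chr4:49489422-49506557 on the minus strand and Nr0b2 at chr4:133553376-133556536 on the plus strand. Cyp27a1 is at chr1:74713574-74737892 on the plus strand, and Cyp8b1, a gene of 1 exon, is at chr9:121914356-121916305 on the minus strand. Abcb11 spans chr2:69238282-69342616 on the minus strand, Abcb4 chr5:8893717-8959231 on the plus strand and Abcc2 chr19:43782192-43840740 on the plus strand. Slc10a1 is at chr12:80953183-80968705 on the minus strand and Slco1b2 at chr6:141629518-141686646 on the plus strand. None is X-linked. Abcb11 is overlapped on the opposite strand by Gm13613 and Gm13614, and Abcb4 on its own strand by the processed pseudogene Gm17936, so a part of the counts of these exporters could belong to the overlapping genes.

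Promoter sequence was available from RefSeq (GRCm38.p6) for 8 of the 10 genes, as 9 entries. The 250 bases before the annotated start are shown for a bile acid exporter, a synthesis enzyme and both importers, the 4 genes that differed between the libraries numbered 1 and the others (values below) and whose window held a searched motif and no exon. Capitals mark matches on either strand to AGGTCA, the hexamer that nuclear receptors bind, GTTAAT, bound by HNF1 factors, TGTTTAC, bound by forkhead factors, or TATAAA, the TATA box. No matches overlapped in these 4 windows.
Abcb11, chr2:69342617-69342866, minus strand: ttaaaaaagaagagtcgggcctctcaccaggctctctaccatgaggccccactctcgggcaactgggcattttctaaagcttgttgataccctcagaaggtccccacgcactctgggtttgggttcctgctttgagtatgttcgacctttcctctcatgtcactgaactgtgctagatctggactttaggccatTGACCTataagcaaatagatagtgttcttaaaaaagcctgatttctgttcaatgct
Cyp8b1, chr9:121916306-121916555, minus strand: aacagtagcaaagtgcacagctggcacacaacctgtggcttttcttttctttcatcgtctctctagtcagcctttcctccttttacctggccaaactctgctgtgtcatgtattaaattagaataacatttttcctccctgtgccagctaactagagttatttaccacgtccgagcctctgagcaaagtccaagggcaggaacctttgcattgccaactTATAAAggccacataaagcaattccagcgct
Slc10a1, chr12:80968706-80968955, minus strand: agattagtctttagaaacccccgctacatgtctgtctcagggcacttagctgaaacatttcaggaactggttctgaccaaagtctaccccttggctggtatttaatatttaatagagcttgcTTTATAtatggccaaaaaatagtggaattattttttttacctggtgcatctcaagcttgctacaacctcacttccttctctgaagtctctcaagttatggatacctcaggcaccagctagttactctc
Slco1b2, chr6:141629268-141629517, plus strand: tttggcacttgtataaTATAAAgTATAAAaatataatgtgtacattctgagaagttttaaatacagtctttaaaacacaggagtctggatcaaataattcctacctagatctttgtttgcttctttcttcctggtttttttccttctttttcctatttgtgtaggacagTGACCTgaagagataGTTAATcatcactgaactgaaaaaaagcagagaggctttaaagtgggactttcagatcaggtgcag
In the windows shown, Slco1b2 held 1 AGGTCA match, 1 GTTAAT match and 2 TATAAA matches, Abcb11 held 1 AGGTCA match, and Cyp8b1 and Slc10a1 held 1 TATAAA match each. A second entry of Slc10a1, at chr12:80968080-80968329 and not shown, held 1 AGGTCA match. Among the 9 entries of the 8 genes, AGGTCA was in 4, TATAAA in 4, GTTAAT in 1 and TGTTTAC in 0. Over all 32851 promoter windows of this length, AGGTCA was in 14%, TATAAA in 12.4%, GTTAAT in 6.43% and TGTTTAC in 3.17%. A match describes the letters and not a binding site.

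Levels are compared between genes as TPM, which divides by transcript length, over the 4 libraries of replicates 2 and 3. Slco1b2 was at 289 ± 47.1 TPM (SD, n = 4), Cyp27a1 at 261 ± 92.4, Cyp8b1 at 243 ± 25.9, Slc10a1 at 240 ± 31.4 and Baat at 228 ± 73.5. In this order these 5 followed each other by less than the larger SD of each neighbouring pair. Abcc2 came next at 153 ± 22.3 TPM, a step from Baat that exceeded the larger SD, followed by Abcb11 at 119 ± 35.9 and Abcb4 at 95.9 ± 19.7. Nr0b2 was lower at 69.6 ± 21.1 TPM, again by more than the larger SD, and Cyp7a1 lay at 48.8 ± 32.8 TPM, within the spread of Nr0b2. The rate-limiting enzyme of the classic route thus had the lowest mean of the 10. In the pair of replicate 1 libraries the order was different, because Cyp27a1 averaged 43.3 TPM and Baat 49.0 TPM there, below Nr0b2 at 63.2 TPM, while the mean of Slco1b2 was 151 TPM and that of Cyp8b1 145 TPM. Slco1b2 was highest in RepB-/- replicate 1, and in WT replicate 1 it was below Slc10a1 and Cyp8b1.

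The first question is whether deletion of repeat B moved these genes in liver. None of the 10 passed an adjusted p of 0.05 between RepB-/- and WT (edgeR quasi-likelihood test, Benjamini-Hochberg over 16080 genes), and 0 had an unadjusted p under 0.05. Over all genes 6 passed, which is 0.0373%, and 502 had an unadjusted p under 0.05. DESeq2 called 80 genes, or 0.423%, again with 0 of the 10 among them. Of the log2 fold changes, 5 were above 0 and the others below it, with a median of -0.02 beside 0.01 over all genes tested. The genotypes overlapped in normalized CPM for each of the 10, whereas 8.05% of all tested genes did not overlap. In bulk tissue, fewer cells of a type and less RNA per cell cannot be told apart.

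Among the enzymes, Cyp7a1 was at 37.7, 49.4 and 199 CPM in the libraries labelled RepB-/- replicates 1, 2 and 3 and at 26.8, 229 and 69.0 CPM in the corresponding WT replicates. High and low libraries occurred in both genotypes, and the log2 fold change was -0.19 with a standard error of 0.92 (edgeR adjusted p = 1.00). Cyp8b1, the sterol hydroxylase that sets the share of cholic acid, was at 163, 275 and 381 CPM in RepB-/- and 138, 328 and 275 CPM in WT (log2 fold change 0.15, standard error 0.45). Cyp27a1, the mitochondrial enzyme that oxidizes the sterol side chain, was at 39.8, 328 and 190 CPM in RepB-/- and 41.2, 327 and 329 CPM in WT. In both genotypes its replicate 1 library was far below the other libraries, and the genotype difference was -0.32 with a standard error of 0.93. Baat, which joins bile acids to taurine or glycine, followed the same layout at 40.7, 179 and 165 CPM in RepB-/- and 32.1, 257 and 218 CPM in WT (log2 fold change -0.40, standard error 0.83). This was the change of largest size among the 10, and it was smaller than its standard error.

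The canalicular exporters overlapped between genotypes as well. Abcb11, the bile salt export pump, was at 161, 293 and 380 CPM in RepB-/- and at 159, 495 and 354 CPM in WT (log2 fold change -0.27, standard error 0.50). Abcb4, which moves phosphatidylcholine into bile, was at 141, 248 and 201 CPM in RepB-/- and 134, 208 and 214 CPM in WT, a difference of 0.09 on the log2 scale with a standard error of 0.32. Abcc2, the pump for conjugated organic anions such as bilirubin glucuronide, was at 202, 377 and 557 CPM in RepB-/- and 206, 365 and 344 CPM in WT. Only replicate 3 of RepB-/- lay clearly above the matching WT library for this gene, and the log2 fold change was 0.31 with a standard error of 0.44.

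Slc10a1, the sodium-dependent importer of taurocholate, was at 119, 215 and 387 CPM in RepB-/- and at 120, 270 and 214 CPM in WT (log2 fold change 0.26, standard error 0.50). The replicate 1 libraries were within 1.01-fold of each other. Slco1b2, a sodium-independent importer of organic anions, was at 304, 634 and 634 CPM in RepB-/- and 221, 551 and 642 CPM in WT, with a log2 fold change of 0.15 and a standard error of 0.50. Nr0b2 was nearly level, at 39.8, 50.4 and 42.9 CPM in RepB-/- and 36, 45.9 and 63.8 CPM in WT (log2 fold change -0.13, standard error 0.25). The adjusted p of each of the 10 rounded to 1.00 in this fit, which had no term for the replicate number. With a replicate block the standard error was smaller for Cyp27a1, at 0.25 (log2 fold change -0.28), and for Baat, at 0.25 (-0.20). Neither gene passed with the block (edgeR adjusted p = 0.864 and 0.899). Without the library labelled RepB-/- replicate 2, and with replicates 2 and 3 alone, the count of the 10 past the threshold was again 0. Leaving out that library turned the sign for Cyp7a1 (log2 fold change 0.12), Abcb4 (-0.12) and Slco1b2 (-0.01) and moved Cyp27a1 to -1.02 and Baat to -0.72. The signs were not stable: for each of the 10 there was at least 1 library whose omission turned the direction, and each of the 6 libraries did so for 2 to 4 of the genes. How often this occurs over all genes was not computed. Summed erythroid genes were at 1394 to 4521 CPM in RepB-/- and at 258 to 1625 CPM in WT, with 0 of 9 tested genes past the threshold, and their part in the genotype values was not tested.

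**Figure D1:**
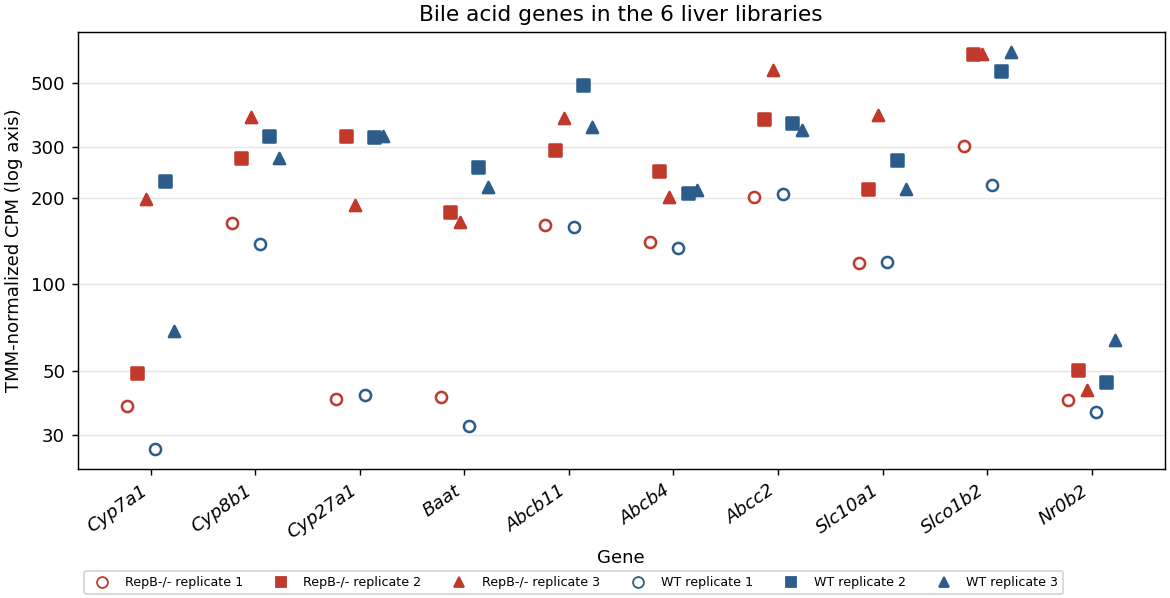
TMM-normalized CPM on a log axis of each of the 10 genes in each of the 6 liver libraries, in red for RepB-/- and blue for WT, with open circles for replicate 1, squares for replicate 2 and triangles for replicate 3. Open circles are the lowest points of every gene, from 26.8 CPM for Cyp7a1 to 304 CPM for Slco1b2, and red and blue points overlap throughout.

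Libraries with the same number can be set side by side between genotypes, and for each of the 10 genes the sign of the difference changed among the 3 numbers. The share of all genes with a changing sign was not computed, and the labels do not say that the numbers pair the samples. Cyp7a1 was 0.49 higher on the log2 scale in RepB-/- at replicate 1, -2.22 at replicate 2 and 1.52 at replicate 3. Its highest library was 8.56-fold above its lowest over all 6, and 4.65-fold over replicates 2 and 3 alone. Within replicates 2 and 3 the range of the other genes lay between 1.17-fold for Slco1b2 and 1.81-fold for Slc10a1. The rate-limiting enzyme thus had the widest spread of the 10 between these 4 libraries. Its lowest value there, 49.4 CPM, was that of the library labelled RepB-/- replicate 2.

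The libraries numbered 1 were then set against those numbered 2 and 3, with genotype as a term in the fit. The numbers come from the sample titles, but this split was chosen with earlier results of these libraries known, so the values are a description of 2 libraries against 4. In normalized CPM the libraries of replicate 1 were the lowest for every one of the 10 genes. With this term 7 of the 10 passed an adjusted p of 0.05 and all 7 were lower (Cyp8b1, Cyp27a1, Baat, Abcb11, Abcc2, Slc10a1 and Slco1b2). Of the 17030 genes tested, 6.82% were called lower, 8.76% higher and 15.6% in either direction. The median log2 fold change of the 10 was -1.22, beside 0.00 over all genes, and 10 of 10 were below 0, as were 49.8% of all genes.

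Cyp27a1 was at 39.8 and 41.2 CPM in the replicate 1 libraries and at 293 ± 69.2 CPM (SD, n = 4) in the others. That is 7.23-fold lower (log2 fold change -2.85, standard error 0.30, edgeR adjusted p = 0.00468), and the lowest of the other 4 libraries was 4.61-fold above the higher of the pair. Baat was at 40.7 and 32.1 CPM against 205 ± 41.4 CPM, 5.56-fold lower (log2 fold change -2.47, standard error 0.27, edgeR adjusted p = 0.00482). These were the largest changes among the 10. Cyp7a1 came next in size at 4.25-fold lower, 37.7 and 26.8 CPM against 137 ± 90.6 CPM, but it did not pass the threshold (log2 fold change -2.09, standard error 0.73, edgeR adjusted p = 0.105). The library labelled RepB-/- replicate 2, at 49.4 CPM, was only 1.31-fold above the higher replicate 1 library for this gene. Cyp8b1 fell by 1.08 on the log2 scale (standard error 0.23, edgeR adjusted p = 0.0270).

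Of the transporters, the importer Slco1b2 was 2.38-fold lower in replicate 1 (log2 fold change -1.25, standard error 0.22, edgeR adjusted p = 0.0159) and the exporter Abcb11 2.37-fold lower (log2 fold change -1.25, standard error 0.25, edgeR adjusted p = 0.0248). Slc10a1 was 2.27-fold lower with an edgeR adjusted p of 0.0448, and Abcc2 was 2.0-fold lower with an edgeR adjusted p of 0.0436. The folds of these importers and exporters lay between 2.0 and 2.38. Abcb4 was at 141 and 134 CPM against 218 ± 20.9 CPM, with a log2 fold change of -0.67 that did not pass (standard error 0.19, edgeR adjusted p = 0.0574). The repressor Nr0b2, at 39.8 and 36 CPM against 50.8 ± 9.24 CPM, had the smallest difference (log2 fold change -0.42, standard error 0.21, edgeR adjusted p = 0.215).

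**Figure D2:**
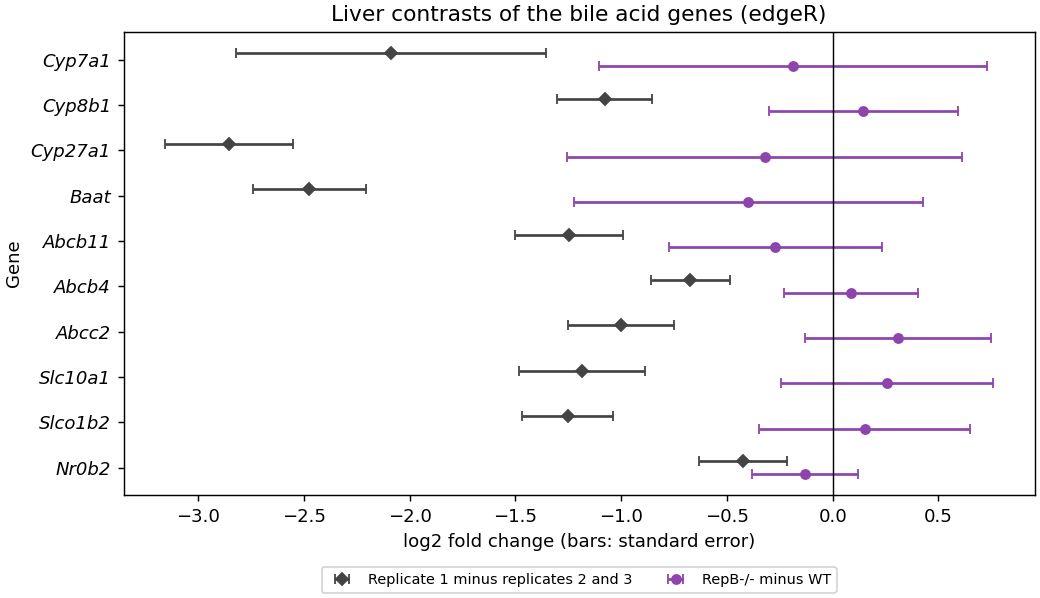
Log2 fold changes from edgeR with their standard errors as bars, for each of the 10 genes, with diamonds for replicate 1 minus replicates 2 and 3 and circles for RepB-/- minus WT. All diamonds lie between -2.85 and -0.42, and every circle lies within 1 standard error of 0.

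In normalized CPM, both replicate 1 libraries lay below the other 4 for 10 of 10 genes, beside 21.3% of all tested genes. The count was 8 of 10 in TPM and in CPM scaled by total counts alone, where Abcb4 and Nr0b2 overlapped. The share of all genes was not computed on these scales, so these counts have no background beside them. Calls changed with the libraries used. Cyp27a1 and Baat alone of the 10 passed without RepB-/- replicate 1 (3.24% of all genes called), without WT replicate 2 (6.95%) and without WT replicate 3 (6.23%), and Baat alone passed without WT replicate 1 (2.23%). Leaving out either replicate 1 library leaves an arm of 1 library, which is assumed to vary like the others. Without the library labelled RepB-/- replicate 2 the count was 7 (11.9%), and DESeq2 called 9 of the 10, all but Nr0b2 (22.2%). The fold changes moved less than the calls. With 1 library left out, the log2 fold change was between -3.01 and -2.68 for Cyp27a1, between -2.91 and -2.10 for Baat and between -1.45 and -0.80 for the other 5 called genes. Within 1 genotype a single replicate 1 library stood against 2 others, and the log2 fold change was below 0 for all 10 in each genotype. For Cyp27a1 it was -2.99 within WT and -2.72 within RepB-/-, for Baat -2.88 and -2.10, for Slco1b2 -1.43 and -1.08 and for Slc10a1 -1.01 and -1.36. In these fits 7 of the 10 passed within WT, where 13.7% of all genes did, and 0 within RepB-/-, where 2.88% did. The difference of the contrast between genotypes passed for 0 of the 10 and for 2 of 18265 genes, and the lowest unadjusted p among the 10 was 0.0763, for Baat.

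Levels of other gene lists were read for the same split, and their part in these results was not tested. Counts of genes called higher or lower stand beside the 8.76% and 6.82% of all genes given above. The 10 genes together summed to 1247 CPM in RepB-/- replicate 1 and 1113 CPM in WT replicate 1, the order in which the pair is given throughout, and to between 2649 and 3137 CPM in the other libraries. As a share of the summed CPM of the 11 hepatocyte secreted proteins they were 0.513% and 0.567% in replicate 1 and between 1.29% and 1.65% elsewhere. That reference was not level in every gene. Of the 11, 1 was called higher in replicate 1 and 0 lower, with 6 above 0 and 5 below. The called gene, Ahsg, was at 53937 and 42004 CPM against 11955 to 23062 CPM (log2 fold change 1.57, edgeR adjusted p = 0.0177). With library size taken from the secreted proteins, the same 7 genes passed, beside 11.1% of all genes. Of 9 fetal hepatoblast genes 7 were tested and all 7 were higher in replicate 1, with Lin28b at 0 in every library. Of these, Dlk1, at 245 and 51 counts against 0 to 2, passed the filter on low counts through the replicate 1 libraries alone. The list was chosen with earlier results known, so the count of 7 is a description only. The leading fetal genes were far lower in the other 4 libraries than in the replicate 1 pair. H19 was at 3880 and 3541 CPM there and at 0.465 to 12.5 CPM in the others, and Afp at 507 and 369 CPM against 2.79 to 6.04 CPM. Of 9 tested erythroid genes 7 were higher, with a summed 4521 and 1625 CPM against 258 to 2249 CPM. Zone 3 genes, which mark mature hepatocytes next to the central vein, were lower for 4 of 6, at 4475 and 3953 CPM against 6394 to 10270 CPM. Other cell types of the liver were read in the same way. The stellate and fibroblast list summed to 1267 and 884 CPM against 291 to 463 CPM, with 3 of 7 higher, and the endothelial list to 346 and 378 CPM against 232 to 306 CPM, with 2 of 6 higher. The cholangiocyte list was at 76.0 and 58.5 CPM against 41.4 to 56.0 CPM, with 1 of 6 tested higher, and the Kupffer cell list at 307 and 853 CPM against 347 to 445 CPM, with 1 of 6 higher. The Kupffer sums of the replicate 1 pair lay on either side of the other libraries. Male-biased liver genes summed to 205 and 200.5 CPM in replicate 1 against 362 to 3479 CPM, with 3 of 8 lower and all 8 below 0, and the highest sum was that of the library labelled RepB-/- replicate 2. Female-biased genes summed to 767 and 547 CPM in replicate 1, to 67.3 CPM in the library labelled RepB-/- replicate 2 and to between 3173 and 5297 CPM in the other 3, with 2 of 9 lower.

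**Figure D3:**
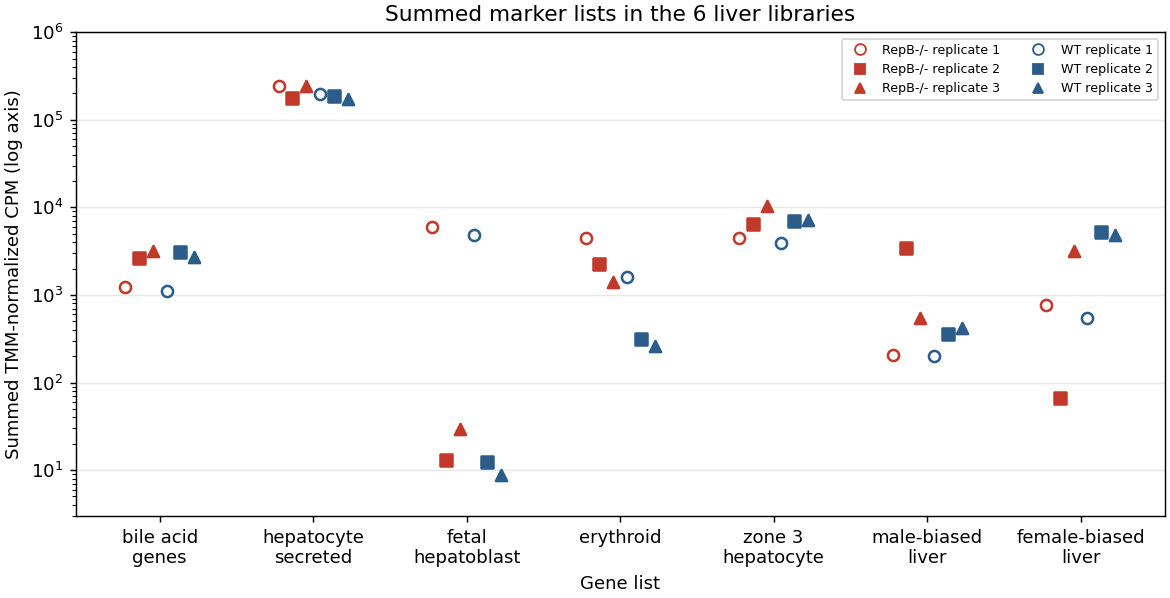
Summed TMM-normalized CPM on a log axis of the 10 bile acid genes and of 6 marker lists in each liver library, in red for RepB-/- and blue for WT, with open circles for replicate 1. The bile acid sum is lowest in both replicate 1 libraries at 1247 and 1113 CPM, where the fetal hepatoblast sum is at 6008 and 4790 CPM.

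The rest of the pathway was read from 3 lists. Between genotypes 0 genes of any list passed (edgeR quasi-likelihood test). Of the 16 tested synthesis genes the changes of largest size were those of the sterol carrier protein gene Scp2 (log2 fold change 0.75, standard error 0.53) and the ring reductase Akr1d1 (-0.61, standard error 0.28). Of 14 tested transport genes they were Abcg8, which exports cholesterol into bile (1.04, standard error 0.66), and the importer Slco1a1 (0.69, standard error 2.07). Of 15 tested regulators they were the xenobiotic receptor Nr1i3 (-0.90, standard error 0.59) and the forkhead factor Foxa2 (-0.85, standard error 0.30). Scp2 was highest in the library labelled RepB-/- replicate 2, at 3638 CPM. It was at 1077 and 1547 CPM in RepB-/- replicates 1 and 3 and at 949, 1255 and 1515 CPM in WT.

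In the replicate 1 contrast the synthesis list followed the 10 genes in part. Of its 17 genes 4 were lower and 0 higher, with a median log2 fold change of -0.62. Cyp7b1, the oxysterol hydroxylase downstream of Cyp27a1, was at 3.83 and 4.62 CPM in replicate 1 against 23.3 to 64.1 CPM (log2 fold change -3.32, edgeR adjusted p = 0.0103). Cyp46a1, a cholesterol hydroxylase best known from neurons, was at 0.0592 and 0.201 CPM against 0.993 to 19.4 CPM (log2 fold change -6.48, edgeR adjusted p = 0.0391). Slc27a5, which activates bile acids for conjugation ahead of Baat, fell by 1.19 on the log2 scale (edgeR adjusted p = 0.0324), and the epoxide hydrolase Ephx1 fell by 1.88 (edgeR adjusted p = 0.0243).

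Transport genes moved in both directions. Of 14 tested 5 were lower and 2 higher, with a median log2 fold change of -0.09, and Slc51a had 0 counts in all 6 libraries. The importer Slco1a1 was at 1.13 and 0.379 CPM in replicate 1 and at 139.6 to 528 CPM elsewhere (log2 fold change -8.86, edgeR adjusted p = 0.00242). Slc10a2, the sodium-dependent importer best known from ileum and bile duct, was at 0.0987 and 0.134 CPM against 17.1 to 28.7 CPM (log2 fold change -7.61, edgeR adjusted p = 6.03e-04). Slco2b1, an organic anion importer, was at 4.80 and 4.46 CPM against 127 to 173 CPM (log2 fold change -5.03, edgeR adjusted p = 3.78e-04). Abcc3, an exporter toward blood, fell by 1.98 on the log2 scale (edgeR adjusted p = 0.0118). The genes that rose were Abcg5 and Abcg8, the subunits of the canalicular cholesterol exporter, which were at 188 and 122 CPM and at 215 and 102 CPM in replicate 1 against 47.7 to 69.2 CPM and 32.7 to 77.0 CPM. The log2 fold changes were 1.42 for Abcg5 (edgeR adjusted p = 0.0108) and 1.63 for Abcg8 (edgeR adjusted p = 0.00496).

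Regulators were lower for 4 of 15 and higher for 0, with a median log2 fold change of -0.59. Nr1i3 fell by 1.62 on the log2 scale (edgeR adjusted p = 0.00800). Nr1h4, the bile acid receptor FXR that activates Nr0b2 and Abcb11, was at 43.8 and 41.2 CPM in replicate 1 and at 76.6 to 117 CPM in the other libraries (log2 fold change -1.09, edgeR adjusted p = 0.0213). Nr5a2, an activator of Cyp7a1 and Cyp8b1, fell by 0.92 (edgeR adjusted p = 0.0248), and the hepatocyte factor Hnf4a fell by 0.81 (edgeR adjusted p = 0.0417). Cebpa was at 22.6 CPM in RepB-/- replicate 1 and at 261 to 309.5 CPM in the other 5, WT replicate 1 included, so the pair of replicate 1 libraries was not alike in every gene. Cebpa was singled out after its values were seen.

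**Figure D4:**
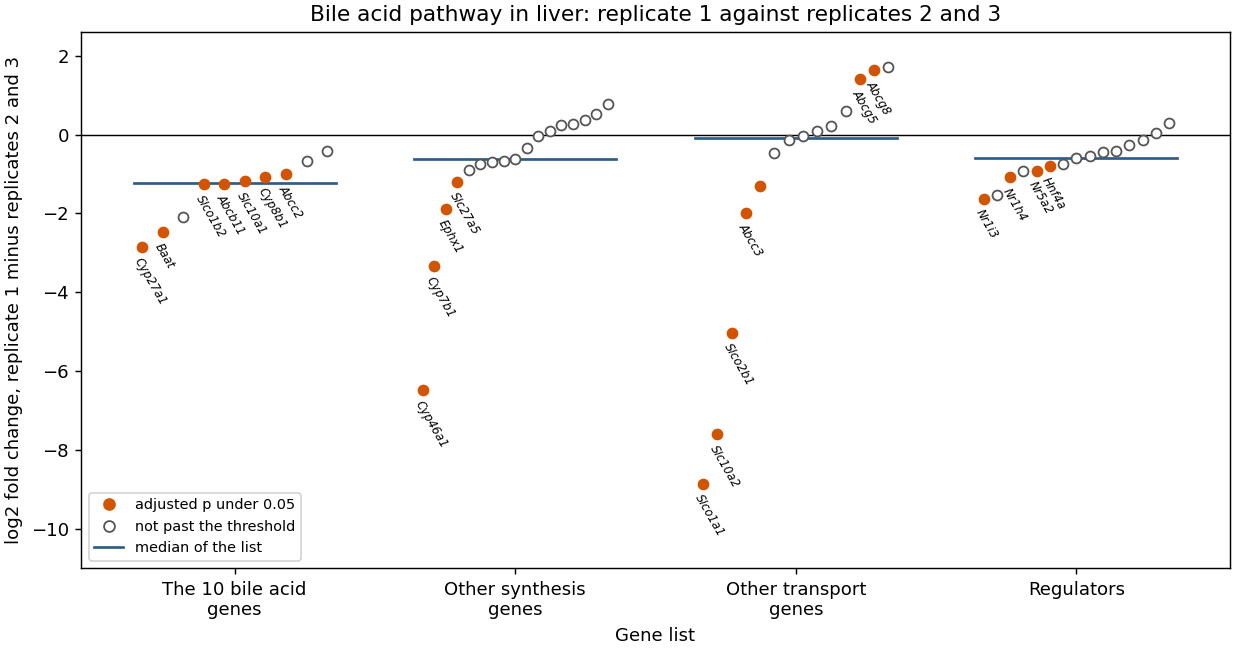
Log2 fold changes of replicate 1 minus replicates 2 and 3 from edgeR for the 10 bile acid genes and for the tested genes of the lists of other synthesis genes, other transport genes and regulators, with filled points for an adjusted p under 0.05 and a line at the median of each list. The medians were -1.22, -0.62, -0.09 and -0.59, and the filled points above 0 are Abcg5 and Abcg8. In each list beside the 10 genes, names are given for the 4 filled points farthest from 0 and for those above 0.

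Across the 6 liver libraries the 10 genes were correlated to differing degrees. The Pearson correlation of log2 CPM lay between 0.24 and 0.98 over the 45 pairs, with a median of 0.85, and 29 pairs were above 0.8. The lowest value was that of Nr0b2 with Cyp7a1, and Nr0b2 with Slc10a1 was at 0.40. The points share library, depth and the split by replicate number. Both replicate 1 libraries were the lowest for every one of the 10 genes, so these correlations are not separate from that split. The share over all gene pairs was not computed. Genes most like Cyp7a1 among 7872 genes of at least 10 CPM were Dennd4c (r = 0.99), Ift52 (0.99), Rab10 (0.99), Dctn4 (0.99) and Anp32a (0.98), and 155 genes, or 1.97%, were above 0.9. For Cyp8b1 they were Sh3d19 (1.00), Zc3hav1 (1.00), Gjb2 (0.99), Lhpp (0.99) and Jmjd8 (0.99), with 665 genes, or 8.45%, above 0.9.

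In MEFs, which are not a bile acid tissue, most of the 10 genes were near 0. Cyp7a1 had 0 counts in all 6 libraries, where 0 in a single library allows an expected count of up to 3 (95% confidence). Cyp8b1 had at most 1 count, Nr0b2 3, Baat 4, Slco1b2 5, Abcb11 7 and Abcc2 13. Slc10a1 had between 6 and 19 counts. Only Cyp27a1 and Abcb4 passed the filter on low counts. Cyp27a1 had 45, 65 and 55 counts in RepB-/- and 73, 96 and 94 counts in WT, from libraries of unequal depth. In normalized CPM it was at 2.81 ± 0.53 in RepB-/- and 5.79 ± 0.18 in WT (SD, n = 3), a log2 fold change of -1.04 (standard error 0.21, edgeR adjusted p = 0.00182). Xist was not among the genes listed for MEFs, and the sex of these libraries was not checked. Of the 13306 genes tested in MEFs, 39.1% passed and 19.7% were lower in RepB-/-, so 1 call among 2 tested genes stands beside a high background. Abcb4 was at 0.901 ± 0.370 and 1.29 ± 0.37 CPM and did not pass (log2 fold change -0.52, standard error 0.41, edgeR adjusted p = 0.342). The difference between liver and MEFs in the genotype change was not tested.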

How the data were processed

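Liver and MEF libraries were grouped by genotype and replicate number from the sample titles. Of the deposited tables, that of liver lists 51826 genes and that of MEFs lists 21959 genes, and each holds whole-number read counts per gene that the authors deposited without normalization. The liver table also holds TPM values that the authors computed per library, which were used only for the order of levels. A further 12 columns of per-library values were left aside. The paper's methods name Cutadapt and Hisat2, the submitters' processing notes list Trim Galore 0.4.1, STAR 2.7.0, HTSeq 0.12.4, DESeq2 and deepTools 3.5.0 without saying which data they served, and the counting step of these tables and its annotation are not given in the sources used here.

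Counts were fitted per tissue with edgeR 4.0.16 in R 4.3.3 (TMM, filterByExpr defaults, quasi-likelihood test, Benjamini-Hochberg over all genes tested, threshold 0.05), by genotype, and in liver also by replicate 1 with a genotype term. Correlations used log2 CPM with a prior count of 2. DESeq2 1.42.0, its size factors, no filter, a mean normalized count of at least 40, a replicate block, other terms and leaving out each library were alternatives, of which fits on replicates 2 and 3 only and on RepB-/- alone were chosen after seeing the data. Library deviations from genotype means correlated between same-numbered liver libraries at 0.71, 0.36 and 0.37. The main genotype fit had no term for the replicate number. Only the replicate block, among the alternatives, treated the numbers as pairing the liver samples. The fit was tested on simulated data, where only the median estimate was required to be close to the change put in. That check does not show how often a real change would be missed in liver. Figures used Python 3.11.15, numpy 2.4.6, pandas 2.3.3 and matplotlib 3.10.9.

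The 10 genes and the pathway and marker lists were chosen with earlier results of these data known. Named were all 10 genes, up to 4 called genes of each pathway list per comparison with the largest log2 fold changes (the 2 largest where none passed, and the called genes of the transport list that were higher), Xist and the Y-linked genes, and the 5 genes most correlated with Cyp7a1 and with Cyp8b1. The values of 1 further called transport gene are not reported here.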

Additional observations from a re-analysis of the deposited data

How the results depend on the processing

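In liver 0 of the 10 genes passed between genotypes under each of 14 alternatives. The count over all genes was 6 and became 80 with DESeq2, 0 without the filter on low counts, 2 with a mean normalized count of at least 40, 2 with replicates 2 and 3 only, 3 with a term for replicate 1 and without the library labelled RepB-/- replicate 2, and 0 to 4 when 1 library was left out. Of 140 single-gene values 117 kept their direction and 23 reversed, none of them past the threshold. With 1 library left out, the genotype difference (log2) went from -1.31 to 1.00 for Cyp7a1, -0.16 to 0.41 for Cyp8b1, -1.02 to 0.16 for Cyp27a1, -0.89 to 0.040 for Baat, -0.61 to 0.13 for Abcb11, -0.12 to 0.28 for Abcb4, -0.069 to 0.62 for Abcc2, -0.26 to 0.58 for Slc10a1, -0.19 to 0.44 for Slco1b2 and -0.30 to 0.12 for Nr0b2. The replicate block gave 8 genes, a Cyp7a1 log2 fold change of 0.0072 and no changed call among the 10. With the term for replicate 1 and without the library labelled RepB-/- replicate 2, Cyp7a1 was at 0.45 and Abcb4 at -0.0096.

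For replicate 1 against replicates 2 and 3, 0 of 140 single-gene values reversed and 28 lost their call. The count over all genes was 2652 and became 4137 with DESeq2, 501 within RepB-/- and 401 to 2711 with 1 library left out. Of the 10 genes 7 passed, against 0 within RepB-/- and 1 to 8 with 1 library left out. Scaling by the hepatocyte secreted proteins moved the median log2 fold change of all genes to -0.18 and the split of calls from 1491 higher and 1161 lower to 856 higher and 1027 lower. The causes were not tested. In MEFs, DESeq2 and the fit without a filter each called 2 of the genes, Cyp27a1 and Slco1b2 (named after its values were seen), the latter on 0 counts in RepB-/- and 3, 3 and 5 in WT. Over all genes, DESeq2 called 5128 of 16333 in MEFs and the fit without a filter 6181 of 19330, so these calls stand beside a high background. The replicate block gave 5006 calls in MEFs against 5202, where the numbers did not pair the samples (correlations -0.01, -0.04 and -0.0035).

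In MEFs, counts of at most 4 limit what can be read for Cyp7a1, Cyp8b1, Baat and Nr0b2. In liver every gene of the 10 had at least 1202 counts in every library, and the 3 libraries per genotype, with replicate 1 unlike the others, set the precision.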
